A study of Anser cygnoides with 18 samples.

Results

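The genes described here are the goose genes that carry the insulin signal from the receptor at the cell surface to the transcription factor FOXO1. They were chosen by symbol: INSR, IRS1, IRS4, PIK3R1, PIK3CA, PIK3CB, AKT1, PDPK1 and FOXO1 were looked up in the annotation of the goose genome, and all 9 were found among the 14628 protein-coding genes of the mRNA table. Expression was measured by RNA sequencing in liver, abdominal adipose (AF) and subcutaneous adipose (SF) of 6 male Tianfu geese, a meat breed, giving 18 libraries. The 3 high-intake geese (T1 to T3) were force-fed until the overnight fast before sacrifice, with meals of 130 g on the first day that grew by 5 g a day, and the 3 control geese (C1 to C3) ate the same diet freely. Both groups were 126 days old at the start, fasted overnight before sacrifice and were sampled at 145 days of age, so the levels are those of fasted birds. Each goose gave all 3 tissues, and the library T1-liver, for example, comes from the liver of goose T1.

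Insulin binding switches on the kinase of its receptor, which phosphorylates the insulin receptor substrate proteins. These recruit phosphoinositide 3-kinase (PI3K), the lipid product of PI3K brings AKT1 and its activator PDPK1 to the membrane, and active AKT phosphorylates FOXO1 and so keeps it out of the nucleus. In mammalian liver FOXO1 drives genes of glucose output, and in fat the pathway promotes glucose uptake and restrains lipolysis. Much of this signalling is phosphorylation, which RNA levels do not measure. The values are FPKM, fragment counts divided by transcript length and library size, so that levels can be compared between genes. The counts themselves are not part of the deposited values, so the depth behind each is unknown and counting error could not be given. Differences are on the log2(FPKM + 1) scale, which understates the changes of genes with low levels. They were tested with limma over all genes with a mean FPKM above 0.1, a level that all 9 genes passed in every comparison, with p adjusted by Benjamini-Hochberg (BH) and a threshold of 0.05. With 3 geese against 3, an exact permutation test of 1 gene cannot give a p below 0.1. Where a level differs in bulk tissue, fewer cells of a type and less RNA per cell cannot be told apart.

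The library C2-SF stood apart before any gene was considered. Its FPKM summed to 107522 over the mRNAs, against 221093 to 394709 in the other adipose libraries, and its median log2 value was 1.47, against 2.08 to 2.36 there. The paper names this sample (C2-SA there) for its lower correlation with adipose tissue. It proposes partial contamination with tissue such as skin, which was not tested here. The main values that rest on C2-SF are also given without it. Hepatocyte genes (13 of 15 listed markers were in the table) summed to 22210 to 31430 FPKM in high-intake livers and 22150 to 23010 in control livers, and at most 3374 in fat. Adipocyte genes (6 of 10) summed to 149 to 380 FPKM in high-intake livers and 256 to 282 in control livers, and to far more in fat, so both tissue labels held. Their sums were 4457 to 4745 FPKM in high-intake AF and 2183 to 4647 in control AF, and 3713 to 4990 in high-intake SF and 1162 to 3644 in control SF, where the groups did not overlap. Hepatocyte genes also reached 823 to 3374 FPKM in high-intake AF and 270 to 1604 in control AF, and 303 to 507 in high-intake SF and 121 to 1602 in control SF. The part of these sums in the AF and SF values below was not tested.

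**Figure D1:**
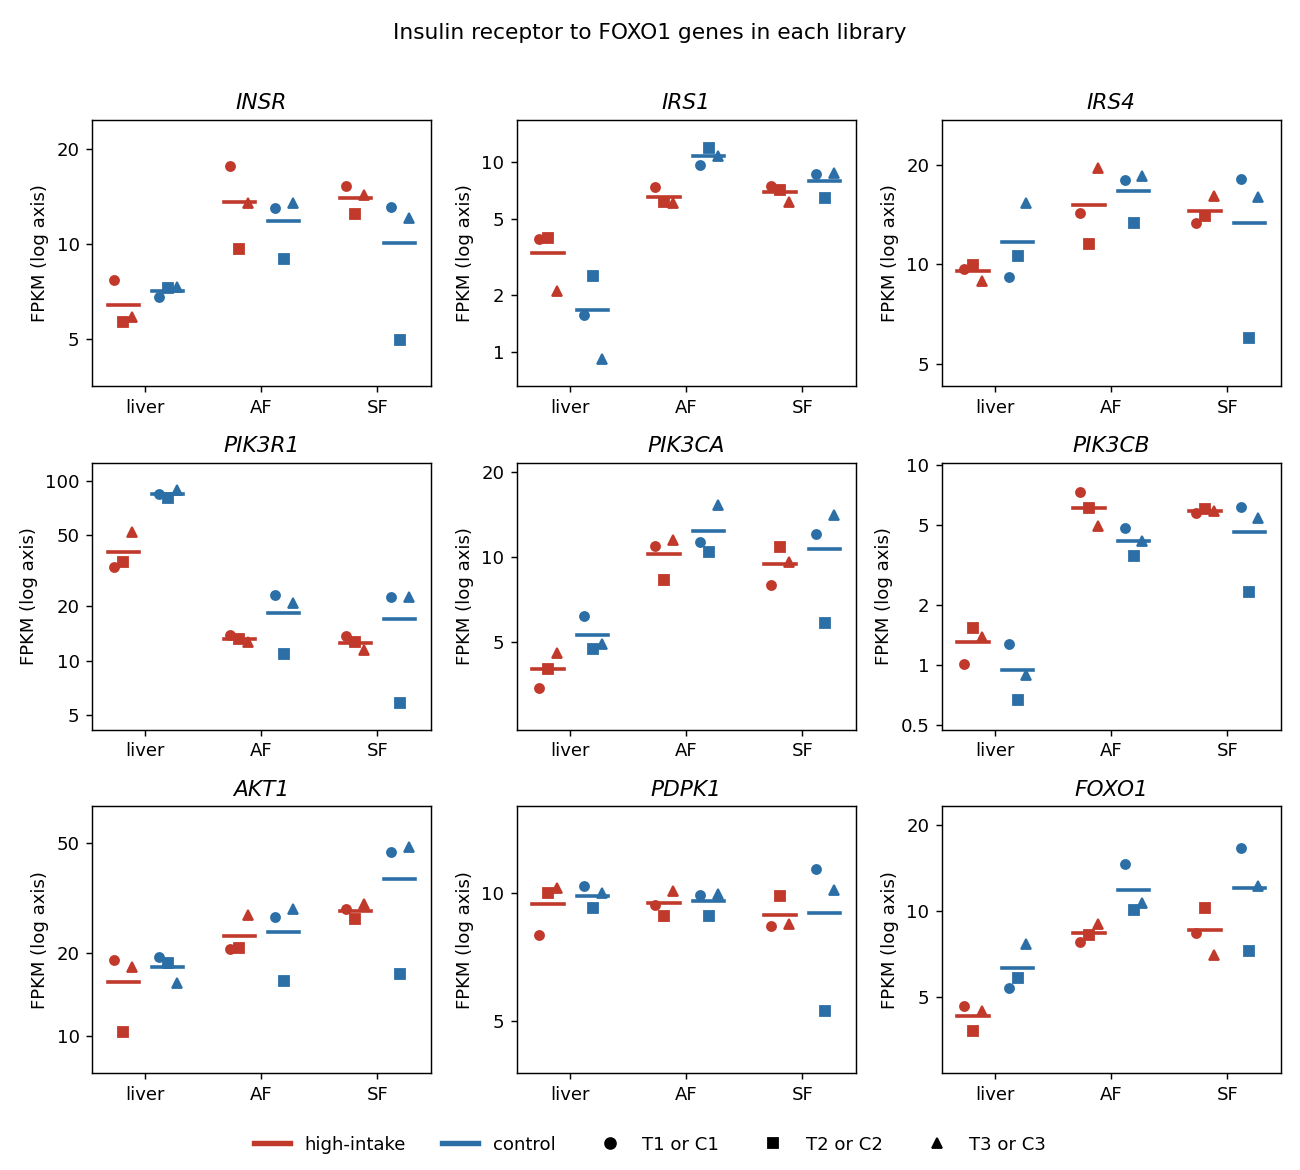
FPKM of the 9 genes in each library on a log axis, with liver, AF and SF along the x axis, high-intake geese in red left of control geese in blue; each point is 1 library, its shape gives the number of the goose, and the bar is the mean of 3 geese. PIK3R1 stands highest in liver, at 33.1 to 51.6 FPKM in high-intake livers and 79.8 to 89.3 in control livers, and C2-SF is the lowest control SF point for every gene.

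PIK3R1, which encodes the regulatory subunit that both stabilises and restrains the PI3K catalytic subunits, had the largest difference between feeding groups of the 9 genes. It lies on the plus strand of scaffold NW_013185770.1 at 543197 to 597570 in the goose assembly. In the livers its level was 33.1, 35.1 and 51.6 FPKM in high-intake geese, against 84.0, 79.8 and 89.3 FPKM in control geese. No high-intake liver reached a control liver, and the mean was 39.9 ± 10.1 FPKM in high-intake livers and 84.4 ± 4.73 FPKM in control livers (SD, n = 3 each), a difference of -52.7%. The log2 change was -1.09 (SE 0.21, 95% interval -1.58 to -0.59), and the adjusted p of 0.0505 (limma) missed the threshold. It passed on 4 other settings, with a pseudocount of 0.1, with median centring, without the intensity trend and with quantile normalisation (adjusted p = 0.031 to 0.0485). It did not pass without the filter, above a mean FPKM of 1, with a block by replicate number or with all 18 libraries (adjusted p up to 0.141, limma). Without T3-liver, the high-intake liver with the highest level, it passed, and leaving out each of the 6 livers in turn gave adjusted p of 0.0379 to 0.181. In its rank among all genes of a library, PIK3R1 stood at the 90.9 to 93.8 percentile in high-intake livers and at the 96.3 to 96.8 percentile in control livers.

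In fat, PIK3R1 was lower than in liver and its feeding groups overlapped. Its level was 13.9, 13.2 and 12.6 FPKM in high-intake AF, against 23.2, 10.9 and 20.8 FPKM in control AF (log2 change -0.38, interval -1.03 to 0.27). In SF it was 13.7, 12.7 and 11.4 FPKM in high-intake geese, against 22.6, 5.79 and 22.7 FPKM in control geese. C1 and C3 had the highest PIK3R1 of each fat depot and C2 the lowest. The log2 change in SF was -0.20 with C2-SF (adjusted p = 0.879, limma) and -0.80 without it (adjusted p = 0.190). The test of whether the change differed between liver and fat gave -0.71 against AF (adjusted p = 0.389) and -0.88 against SF (adjusted p = 0.691), so an unequal change was not shown. Leaving out 1 goose in turn gave -0.94 to -0.43 against AF and -1.19 to -0.32 against SF, both nearest 0 without goose C2.

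The catalytic subunits PIK3CA (p110 alpha, the main insulin-responsive form in mammals) and PIK3CB (p110 beta) had means in opposite order between the feeding groups. PIK3CA is on scaffold NW_013185670.1 at 4413705 to 4448069 and PIK3CB on scaffold NW_013185742.1 at 1804677 to 1915629, both on the plus strand. PIK3CA was 3.44, 4.03 and 4.57 FPKM in high-intake livers, against 6.17, 4.74 and 4.94 FPKM in control livers, with no overlap (log2 change -0.33, SE 0.17, adjusted p = 0.288, limma). In AF it overlapped, at 8.27 to 11.5 FPKM in high-intake geese and 10.4 to 15.3 in control geese (log2 change -0.24). It also overlapped in SF, at 7.97 to 10.8 FPKM in high-intake geese and 5.83 to 14.1 in control geese. The log2 change of PIK3CA in SF was -0.085, or -0.43 without C2-SF. PIK3CB was 1.01, 1.53 and 1.39 FPKM in high-intake livers, against 1.28, 0.667 and 0.890 FPKM in control livers, with overlap (log2 change 0.25, adjusted p = 0.377). In AF, PIK3CB was 7.31, 6.11 and 4.95 FPKM in high-intake geese, against 4.87, 3.52 and 4.20 FPKM in control geese. These AF groups did not overlap, and the log2 change of 0.45 (SE 0.18) had an adjusted p of 0.237. The mean of PIK3CB differed by 38.6% in liver, 46.0% in AF and 26.9% in SF, all towards the high-intake group and none past the threshold. Without C2-SF its log2 change in SF was 0.02 in place of 0.36.

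Ratios within a library do not depend on how that library was scaled. PIK3R1 over the summed PIK3CA and PIK3CB was 6.31 to 8.66 in high-intake livers and 11.3 to 15.3 in control livers, while in AF it was 0.761 to 0.920 in high-intake geese and 0.782 to 1.43 in control geese. The regulatory transcript was thus in several-fold excess over these catalytic transcripts in liver only, among the tissues measured. PIK3CA over PIK3CB was 2.63 to 3.41 in high-intake livers and 4.82 to 7.11 in control livers. In SF that ratio was 1.38 to 1.80 in high-intake geese and 1.96 to 2.57 in control geese, C2-SF included, and in AF the highest high-intake library (2.328) and the lowest control library (2.327) met. These ratios were chosen with the values known and carry no test.

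**Figure D2:**
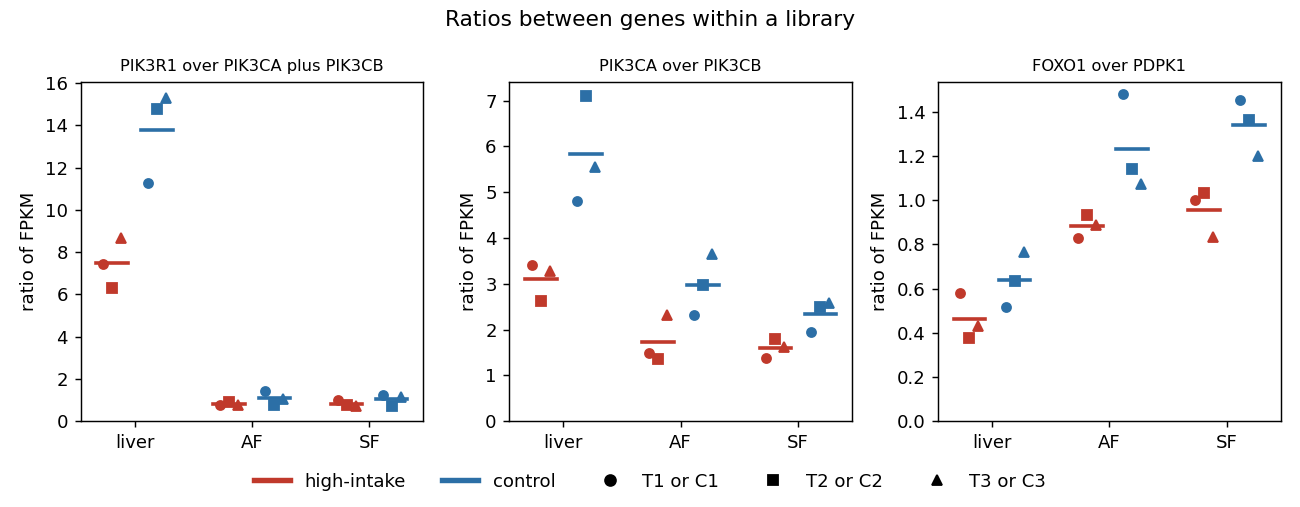
Ratios of FPKM within each library, on linear axes from 0, with high-intake geese in red left of control geese in blue; each point is 1 library and the bar is the mean of 3. The ratio of PIK3R1 to the catalytic subunits averages 7.47 in high-intake livers and 13.8 in control livers, and that of FOXO1 to PDPK1 separates the feeding groups in AF and SF.

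FOXO1, the transcription factor at the end of the pathway, had a lower mean in high-intake geese in each tissue. It is on the minus strand of scaffold NW_013185688.1 at 242604 to 308759, and the annotation marks its model as partial. Its level was 4.64, 3.79 and 4.44 FPKM in high-intake livers, against 5.36, 5.83 and 7.65 FPKM in control livers. In AF it was 7.79, 8.26 and 9.02 FPKM in high-intake geese, against 14.7, 10.1 and 10.7 FPKM in control geese. Neither tissue had an overlap between the groups. In SF it was 8.36, 10.2 and 7.03 FPKM in high-intake geese, against 16.6, 7.21 and 12.2 FPKM in control geese, where only C2-SF lay among the high-intake values. The means differed by -31.7% in liver, -29.2% in AF and -28.9% in SF, with log2 changes of -0.45 (SE 0.18, adjusted p = 0.180), -0.44 (SE 0.18, adjusted p = 0.229) and -0.39 (adjusted p = 0.748, limma), none past the threshold. Without C2-SF the SF change was -0.69 (adjusted p = 0.319). The liver and AF changes of FOXO1 differed by -0.01 (95% interval -0.64 to 0.61).

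The percentile of FOXO1 among the genes of its library separated the feeding groups in all 3 tissues. It was 60.6 to 62.7 in high-intake livers and 66.1 to 74.4 in control livers, 65.2 to 68.6 in high-intake AF and 76.3 to 80.3 in control AF, and 64.0 to 72.1 in high-intake SF and 77.8 to 84.4 in control SF. C2-SF was apart by rank only, since its FOXO1 level, 7.21 FPKM, lay among the high-intake levels. Values in C2-SF were low over all genes (median log2 1.47), so the same FPKM tends to rank higher there. PIK3R1 and PIK3CA of C2-SF, at 5.79 and 5.83 FPKM, lay below the high-intake levels. PIK3R1 and PIK3CA also had lower percentiles in every high-intake library of all 3 tissues, the closest being PIK3R1 in AF, with 76.1 to 78.0 in high-intake geese and 78.2 to 88.8 in control geese, and PIK3CA in SF, with 65.9 to 73.6 and 73.8 to 80.6 in the same order. Of all genes, 3.63% did so in the 3 tissues. By tissue, 3 of the 9 genes lay lower without overlap in liver (18.9% of all genes), 5 in AF (13.9%) and 6 in SF (13.7%). None of the 9 lay higher, where 13.5%, 11.8% and 12.2% of all genes did in the same order. Without C2-SF it was 7 in SF (18.5% of all genes). IRS1 and PDPK1 joined them in both fat depots and AKT1 in SF. The tissues come from the same geese, so they are not separate evidence, and this measure was added after the values were seen.

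The receptor and its 2 substrates opened the pathway at unlike levels. INSR, the insulin receptor (scaffold NW_013185837.1, 153085 to 199440, minus strand), was 5.66 to 7.67 FPKM in high-intake livers and 6.78 to 7.30 FPKM in control livers. In fat it was 9.66 to 17.7 FPKM in high-intake geese and 4.94 to 13.5 FPKM in control geese. The feeding groups overlapped in each tissue, with log2 changes of -0.14 in liver, 0.17 in AF and 0.54 in SF (0.14 without C2-SF) and adjusted p from 0.630 to 0.725 (limma).

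IRS1, the substrate best known for insulin action in fat and muscle, lay on opposite sides of its control in liver and AF. It is on scaffold NW_013185699.1 at 3611375 to 3634319, plus strand, with a model marked partial. In the livers it was 3.92, 3.96 and 2.09 FPKM in high-intake geese, against 1.57, 2.52 and 0.918 FPKM in control geese. One high-intake liver, T3, lay within the control range, and the log2 change of 0.71 (SE 0.28) had an adjusted p of 0.184 (limma). In AF it was 7.35, 6.14 and 6.08 FPKM in high-intake geese, against 9.62, 11.9 and 10.8 FPKM in control geese, with no overlap and a log2 change of -0.65 (SE 0.15, adjusted p = 0.114). In SF it was 6.15 to 7.47 FPKM in high-intake geese and 6.50 to 8.77 FPKM in control geese (log2 change -0.17, or -0.29 without C2-SF). The difference between the liver and AF changes was 1.35 (SE 0.28, 95% interval 0.70 to 2.01), the largest of the 9 genes, with an unadjusted p of 0.00163 and an adjusted p of 0.130 over all genes. Against SF it was 0.88 (adjusted p = 0.483), or 1.22 without goose C2 (adjusted p = 0.224).

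IRS4, a further substrate of the receptor, was present throughout, at 8.93 to 9.95 FPKM in high-intake livers and 9.14 to 15.4 FPKM in control livers, above IRS1 in each liver. It is on scaffold NW_013185722.1 at 2163207 to 2183771, plus strand, also partial. IRS1 over IRS4 in liver was 0.235 to 0.404 in high-intake geese and 0.0596 to 0.237 in control geese. The log2 changes of IRS4 were -0.24 in liver, -0.15 in AF and 0.23 in SF, and the last turned to -0.22 without C2-SF. IRS2, the substrate that dominates in mammalian liver, is not among the 9 genes and was added after its values were seen. It was 4.64, 5.20 and 8.80 FPKM in high-intake livers, against 6.96, 6.24 and 3.86 FPKM in control livers, with overlap, and in SF 6.92, 6.48 and 6.73 FPKM in high-intake geese, against 15.2, 6.88 and 11.1 FPKM in control geese.

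Of the kinases, PDPK1 had the smallest log2 change of the 9 genes in liver (-0.066) and AF (-0.015). PDPK1, which phosphorylates AKT in its activation loop (scaffold NW_013185865.1, 1346004 to 1374421, plus strand), was 7.97 to 10.3 FPKM in high-intake livers and 9.21 to 10.4 FPKM in control livers. In AF it was 8.84 to 10.1 FPKM in high-intake geese and 8.82 to 9.96 FPKM in control geese. Its 95% interval was -0.45 to 0.31 in liver and -0.34 to 0.31 in AF on the log2 scale. AKT1 (scaffold NW_013185709.1, 4046220 to 4118689, plus strand) was 10.3 to 18.9 FPKM in high-intake livers and 15.6 to 19.4 FPKM in control livers. In SF it was 28.8, 26.5 and 30.1 FPKM in high-intake geese, against 46.1, 16.8 and 48.3 FPKM in control geese, where C2-SF lay lowest and the other control libraries highest. The log2 change there was -0.23 with C2-SF and -0.71 without it (adjusted p = 0.222, limma). FOXO1 over PDPK1 within a library was 0.830 to 0.934 in high-intake AF and 1.07 to 1.48 in control AF, and 0.833 to 1.04 in high-intake SF and 1.20 to 1.45 in control SF. In liver the ratio overlapped, at 0.379 to 0.582 in high-intake geese and 0.517 to 0.765 in control geese. Like the other ratios, it was chosen with the values known and carries no test.

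Counted together, 0 of the 9 genes passed the adjusted threshold with feeding in liver, AF or SF (limma), where 2.19%, 0.0878% and 2.13% of all genes did. Before adjustment, p lay under 0.05 for 3 in liver (PIK3R1, IRS1 and FOXO1), 3 in AF (IRS1, PIK3CB and FOXO1) and 0 in SF, beside 24.1%, 20.3% and 12.8% of all genes. Groups did not overlap for 3 of 9 genes in liver, all lower in high-intake geese (15.4% of all genes lower), and for 3 in AF, of which 2 were lower (7.17%) and 1 higher (20.1%). In SF it was 0 of 9, where 20.8% of all genes did not overlap in either direction. Without C2-SF, with 3 high-intake and 2 control libraries, 6 of the 9 genes lay lower without overlap (16.3% of all genes) and 0 higher (14.5%), the 6 being IRS1, PIK3R1, PIK3CA, AKT1, PDPK1 and FOXO1. The median log2 change of the 9 genes was -0.21 in liver, -0.15 in AF and -0.08 in SF, beside 0.03, 0.12 and 0.21 over all genes tested, and in SF without C2-SF it was -0.29, beside -0.01 over all genes. No gene of the 9 passed the adjusted threshold in SF without C2-SF either, and 3 had an unadjusted p under 0.05 (12.1% of all genes). In the SF fit with C2-SF, limma set the spread of every gene to the common trend. The p-values of that fit thus do not use the gene's own spread between geese, while those of the fit without C2-SF do. The 3 interaction tests also called 0 of 9, with 0.0723%, 1.72% and 0.0387% of all genes called for liver against AF, liver against SF and AF against SF.

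**Figure D3:**
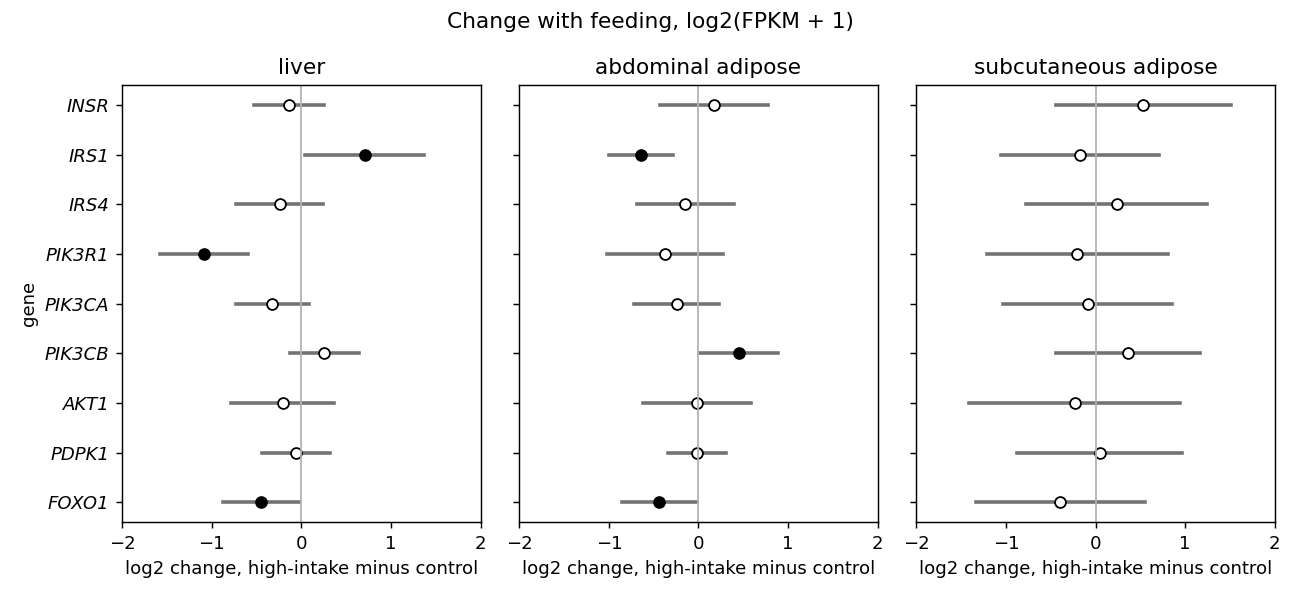
Log2 change of each gene, high-intake minus control, on the log2(FPKM + 1) scale in the 3 tissues; points are limma estimates from 3 geese against 3, lines their 95% intervals, and filled points have an unadjusted p under 0.05. PIK3R1 in liver is farthest from 0, at -1.09, the intervals are widest in SF, and no gene passed the adjusted threshold.

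Markers of other cells moved with feeding in some tissues, and their part in the differences above was not tested. In liver, 8 endothelial genes summed to 36.0 to 43.3 FPKM in high-intake geese and 59.1 to 81.2 FPKM in control geese, without overlap, as for PIK3R1, PIK3CA and FOXO1. Keratinocyte-list genes (7 of 14 in the table) summed to 4.10 to 7.62 FPKM in high-intake livers and 1.28 to 2.66 FPKM in control livers, mostly from DSP. Skeletal muscle genes (9 of 13) spanned 1.42 to 13.5 FPKM in high-intake livers and 9.94 to 92.0 FPKM in control livers, and leukocyte genes (7 of 11) overlapped at 71.0 to 116 and 88.6 to 133 FPKM in the same order. In AF the endothelial sums overlapped, at 211 to 389 FPKM in high-intake geese and 194 to 385 FPKM in control geese, and the keratinocyte sums were 80.2 to 153 FPKM in high-intake geese and 22.5 to 96.1 FPKM in control geese. In SF the keratinocyte sums were 154.5 to 189 FPKM in high-intake geese and 52.5 to 151 FPKM in control geese, without overlap. Most of this was PPL, with a mean of 165 FPKM in high-intake SF and 109 FPKM in control SF. Its means in AF were 110 and 53.7 FPKM in the same order. Of the 7 keratinocyte-list genes, 3 had a mean above 0.1 FPKM in high-intake SF and 7 in control SF. Genes of the erythrocyte list (0 of 7) were not analysed here.

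More of the 9 genes differed between liver and fat than between the feeding groups, as was also so over all genes. In control geese, 6 of the 9 genes differed between liver and AF (62.5% of all genes did, limma, adjusted p under 0.05). PIK3R1 was higher in liver by a log2 difference of 2.21 (SE 0.27, adjusted p = 0.00031). Lower in liver were IRS1 (-2.18), PIK3CB (-1.42), PIK3CA (-1.08), FOXO1 (-0.81) and INSR (-0.64). In high-intake geese the same 6 genes passed (55.9% of all genes), with PIK3R1 at 1.50 and PIK3CB at -1.62, PIK3CA at -1.16, INSR at -0.96, IRS1 at -0.83 and FOXO1 at -0.82. AKT1, IRS4 and PDPK1 did not pass in either feeding group, with IRS4 closest (-0.59, adjusted p = 0.0508, in high-intake geese). The call of INSR in control geese was lost without C1-liver (adjusted p = 0.0545) or C3-AF (adjusted p = 0.0616), and that of IRS1 in high-intake geese without T1-AF (adjusted p = 0.0704).

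Against SF, 8 of the 9 genes passed in high-intake geese (57.2% of all genes), all but PDPK1. PIK3R1 was higher in liver by 1.57 (adjusted p = 0.000626), and lower in liver were PIK3CB (-1.58), PIK3CA (-1.06), INSR (-1.03), IRS1 (-0.90), AKT1 (-0.86), FOXO1 (-0.84) and IRS4 (-0.56). AKT1 was lost without T1-SF or T3-SF (adjusted p = 0.0571 and 0.0585), and IRS4 without T3-SF (adjusted p = 0.0792). In control geese 3 of 9 passed (35.6% of all genes), PIK3R1 (2.45), IRS1 (-1.78) and PIK3CB (-1.47). Without C2-SF 7 passed (62.1% of all genes in that fit), with the addition of PIK3CA (-1.16), FOXO1 (-1.08), INSR (-0.75) and AKT1 (-1.37). Both liver comparisons of a feeding group share its livers and are not separate evidence.

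The direction of several of these differences rests on the scale between tissues. The median gene was lower in liver than in fat by a log2 difference of -0.31 (AF) and -0.23 (SF) in control geese and of -0.38 and -0.36 in high-intake geese. When each library was centred on its median, PIK3R1 and PIK3CB passed in all 4 comparisons with their direction kept, PIK3CA and IRS1 passed only in control geese, and FOXO1 in none. INSR passed against SF in high-intake geese only. On that scale PDPK1 was higher in liver against AF, by 0.60 in high-intake geese (adjusted p = 0.0290) and 0.54 in control geese (adjusted p = 0.00881, limma), and against SF in high-intake geese, by 0.61 (adjusted p = 0.0249), while AKT1 against AF and IRS4 against AF lay near 0, at 0.05 to 0.13 and 0.01 to 0.02, above it rather than below. Over all genes, 19.0% were called higher and 43.5% lower in control liver against AF as deposited, and 37.8% and 23.9% after centring. With quantile normalisation PIK3R1, PIK3CB and PIK3CA passed in all 4 comparisons. Between AF and SF none of the 9 genes differed in control geese (0.275% of all genes, range -0.52 to 0.41, or -0.997 to 0.276 without C2-SF) or in high-intake geese (0.0487%, range -0.30 to 0.10, limma).

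**Figure D4:**
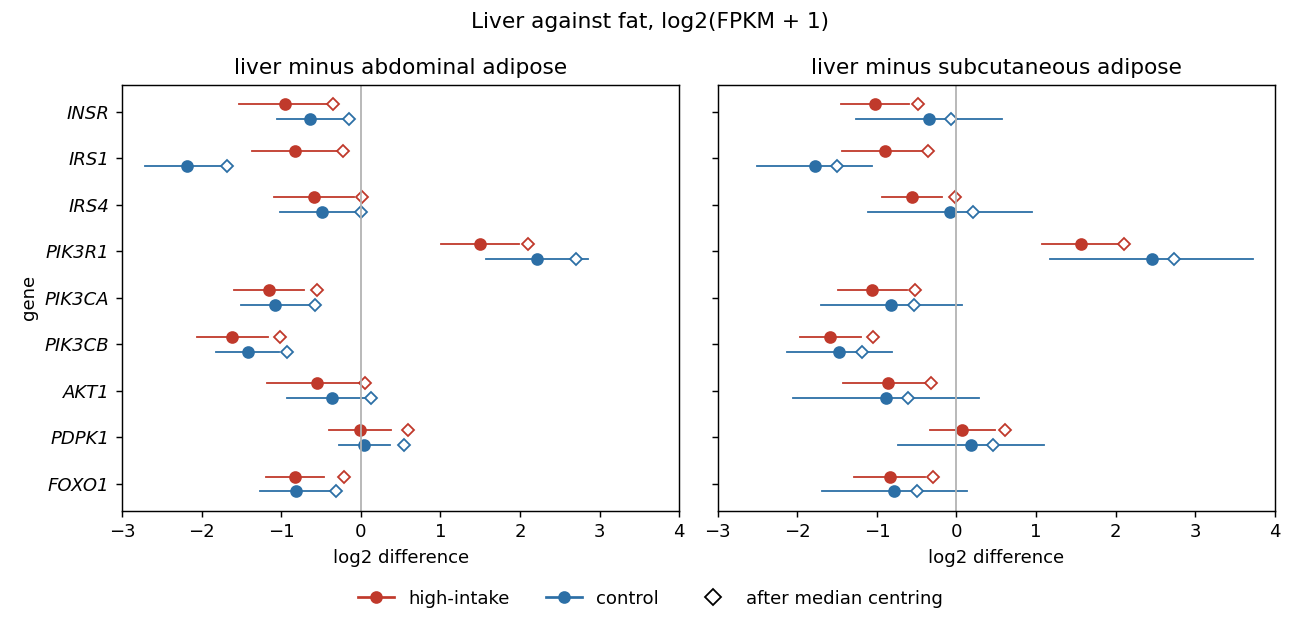
Log2 differences between liver and AF (left) and liver and SF (right), with high-intake geese in red above control geese in blue; filled circles with 95% limma intervals use the values as deposited and open diamonds follow median centring of each library. PIK3R1 lies to the right of 0 and PIK3CB to the left on both scales, PDPK1 sits near 0 as deposited and to the right of 0 after centring, and IRS4 and AKT1 change side against AF.

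By mean level over the 6 groups, the order of the genes differed between tissues. PIK3R1 was the most abundant of the 9 in liver in both feeding groups, whereas AKT1 was the most abundant in AF and SF, at 23.0 ± 3.89 FPKM in high-intake AF and 23.9 ± 7.01 FPKM in control AF, and at 28.4 ± 1.81 FPKM in high-intake SF and 37.1 ± 17.6 FPKM in control SF (SD, n = 3 each). PIK3CB was the least abundant in each group, at 1.31 ± 0.271 FPKM in high-intake livers and 0.946 ± 0.311 FPKM in control livers. For PIK3R1, control liver stood above high-intake liver and that above the fat groups without overlap, and the 4 fat groups overlapped with their neighbours. For IRS1 the order ran from control AF (10.8 FPKM) through the SF groups and high-intake AF (6.52 FPKM) to high-intake liver (3.33 FPKM) and control liver (1.67 FPKM), where control AF stood clear of control SF and high-intake AF clear of high-intake liver. For PDPK1, INSR and IRS4 all neighbours overlapped.

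Over the 18 libraries, the genes most like each member in Pearson's r of the log2 values, among 8815 genes, are given as a description, since the libraries share tissues and geese. PIK3R1 was most like PPP1R3C (0.960), which encodes a glycogen-targeting subunit of protein phosphatase 1, and CCDC152 (0.960). PIK3CB was most like ITGB1 (0.987), an integrin subunit, and PFKP (0.985), a phosphofructokinase. FOXO1 was most like SIRT1 (0.956), a deacetylase of which FOXO1 is a substrate in mammals, and RBL2 (0.949). IRS1 was most like RNF152 (0.946) and KCTD21 (0.944), INSR like FAM8A1 (0.953) and KIAA0368 (0.950), PIK3CA like MYO10 (0.966) and PRR14L (0.964), IRS4 like EDRF1 (0.906) and TIA1 (0.902), and AKT1 like MITF and FBXO30 (0.899 each). PDPK1 was most like GEMIN2 (0.929) and ASNSD1 (0.899), and these values dropped to 0.772 and 0.685 without C2-SF.

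Other genes of the pathway were taken from a list by role, of which 95 of 115 were in the table. In liver 3 of the 90 tested passed with feeding (3.33%, beside 2.19% of all genes), 2 higher and 1 lower. SGK2, a kinase related to AKT, was 29.3, 27.9 and 20.2 FPKM in high-intake livers, against 9.71, 8.68 and 6.49 FPKM in control livers (log2 change 1.52, SE 0.22, adjusted p = 0.0294, limma). CCNG2, an unusual cyclin and FOXO target in mammals, was 8.79, 9.22 and 9.37 FPKM in high-intake livers, against 4.07, 3.68 and 4.64 FPKM in control livers (log2 change 0.99, adjusted p = 0.0359). SOCS1, an inhibitor of cytokine and insulin receptor signalling, was 2.75, 2.35 and 1.26 FPKM in high-intake livers, against 7.66, 8.59 and 5.66 FPKM in control livers (log2 change -1.43, SE 0.24, adjusted p = 0.0429). None of the 3 overlapped between groups, and 31.5% of all genes did not either. The 3 were chosen by p on the same values, so this adds no support to their calls. These calls rest on 3 geese a group: CCNG2 and SOCS1 lost theirs without any 1 of the 6 livers (adjusted p = 0.0515 to 0.140 for CCNG2 and 0.0515 to 0.145 for SOCS1), and SGK2 without T1-liver or any 1 control liver (0.0649 to 0.120). CCNG2 also lost its call in the fit of all 18 libraries (adjusted p = 0.218, limma), and SGK2 and SOCS1 theirs without the filter (0.0627 and 0.0812). With median centring or quantile normalisation 4 genes passed, the 3 and PPARGC1A, where 2.59% and 2.85% of all genes did.

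Below the threshold in liver, PPARGC1A, a coactivator of FOXO1 in glucose output, was 1.44, 0.729 and 1.21 FPKM in high-intake geese, against 2.75, 2.72 and 3.59 FPKM in control geese (log2 change -0.93, adjusted p = 0.0527, limma). It passed with median centring (adjusted p = 0.0420), with quantile normalisation (adjusted p = 0.0427) and in the fit of all 18 libraries (adjusted p = 0.00197). On the other settings it did not pass (adjusted p up to 0.101, limma), nor with any 1 liver left out (0.074 to 0.178). KLF15, a regulator of amino acid use and glucose output, had a log2 change of 0.84 (adjusted p = 0.0777), and INPP4A, a phosphoinositide phosphatase, one of -0.63 (adjusted p = 0.0911). By role, the phosphatases and inhibitors had 13 of 19 genes below 0 and 1 called, the other PI3K subunits 4 of 11 below 0 and none called, and the FOXO paralogs and targets 10 of 22 below 0 and 1 called. The AKT paralogs and substrates had 5 of 8 below 0 and 1 called. With none called, the ligands and other receptors had 3 of 4 below 0, the adaptors 6 of 12 and the mTOR branch 5 of 14. All roles together had 46 of 90 below 0 and 3.33% called, beside 2.19% of all genes called. The median over the 90 genes was -0.03, beside 0.03 over all genes.

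**Figure D5:**
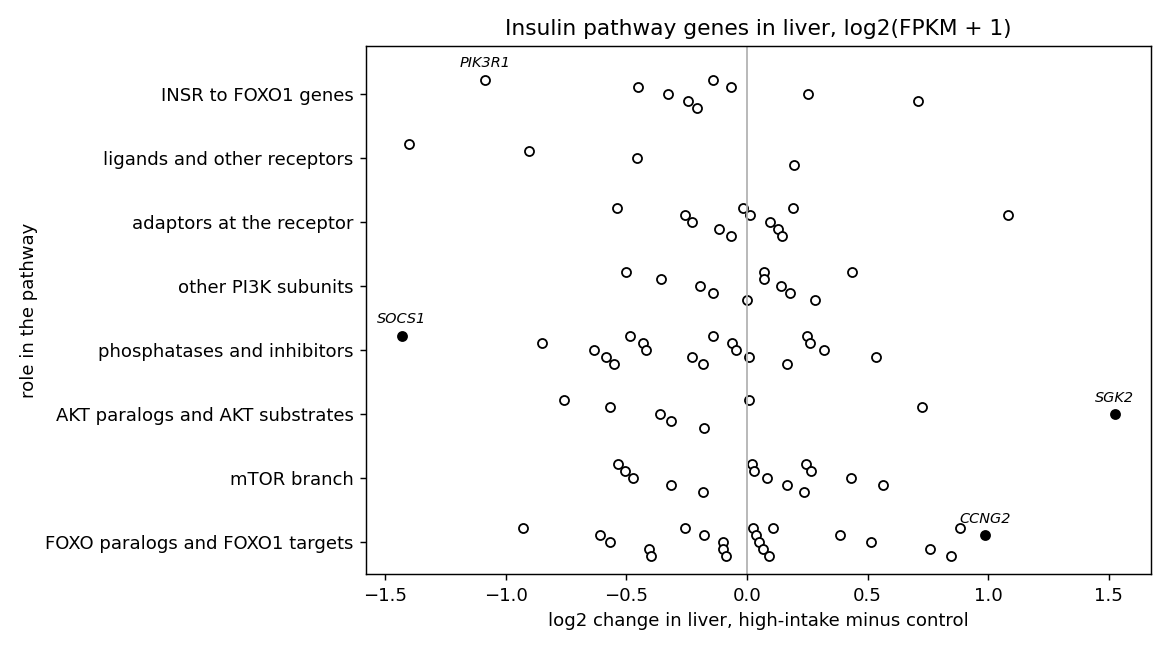
Log2 change in liver, high-intake minus control, of the 9 genes and of the listed pathway genes grouped by role, 1 point per gene on the log2(FPKM + 1) scale; filled points passed an adjusted p of 0.05 (limma). SGK2 and CCNG2 lie to the right and SOCS1 to the left, and PIK3R1 is the lowest of the 9 genes.

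In fat the same list gave 0 of 92 calls in AF (0.0878% of all genes) and 1 of 94 in SF (1.06%, beside 2.13% of all genes). At an unadjusted p under 0.05 (limma) there were 14 in AF (20.3% of all genes) and 9 in SF (12.8% of all genes). The call in SF was IGF1, the insulin-like growth factor. IGF1 in SF was 0.729, 0.152 and 0.142 FPKM in high-intake geese, against 2.24, 0.875 and 0.582 FPKM in control geese, with overlap (log2 change -0.69, adjusted p = 0.0412, limma), and its adjusted p without C2-SF was 0.416. The call was also lost without C1-SF, T2-SF or T3-SF (adjusted p = 0.205 to 0.458). The genes nearest the threshold in AF were GRB2, an adaptor (0.77, adjusted p = 0.113), EIF4EBP1, a translation repressor controlled by mTOR (1.12, adjusted p = 0.114), SOCS1 (0.84, adjusted p = 0.128), SIRT1 (-0.46, adjusted p = 0.163), PIK3IP1, an inhibitor of PI3K (-0.86, adjusted p = 0.180), and INPP4B, a phosphoinositide phosphatase (-0.65, adjusted p = 0.182). EIF4EBP1 passed without C1-AF (adjusted p = 0.0467). In SF the lower genes were, after IGF1, G6PC, the glucose-6-phosphatase (-0.94, adjusted p = 0.0764), and PPARGC1A (-0.36, adjusted p = 0.274, limma). The higher genes were SH2B2, an adaptor of the receptor (0.69, adjusted p = 0.326), SOCS1 (0.75, adjusted p = 0.387) and EIF4EBP1 (1.34, adjusted p = 0.408). Without C2-SF the SF values were -1.81 for G6PC, -0.20 for PPARGC1A, 0.39 for SH2B2, 0.38 for SOCS1 and 0.74 for EIF4EBP1. For G6PC, leaving out each of the 6 SF libraries in turn gave -1.81 to -0.02 (adjusted p = 0.0588 to 0.956, limma). Its level was 0.474 to 2.32 FPKM in high-intake SF and 0.253 to 13.9 FPKM in control SF, with overlap.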

How the data were processed

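Total RNA depleted of ribosomal RNA was sequenced from 18 tissue samples. Reads were mapped to the Anser cygnoides assembly with TopHat2, and the authors estimated FPKM with Cufflinks 2.1.1 (version from the submitters' processing notes). The deposited values are on a log2 scale, read as log2(FPKM + 1): the sources name no scale, and with natural logarithms FPKM times transcript length would sum to more than the unit allows. The labels name Trizol for RNA isolation and the methods another kit. The paper describes Tianfu geese as mostly of Landes (A. anser) ancestry, with a minor part from Sichuan White (A. cygnoides). Mapping to A. cygnoides may thus lower some values.

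The 9 members and all lists were chosen with earlier results of these data known. limma 3.58.1 (R 4.3.3) tested genes with a mean FPKM above 0.1, two-sided, with an intensity trend and BH adjustment over all genes; the scripts were tested on simulated data. Tissue and feeding contrasts had no block, and interactions had goose as a block. The 3 tissues of a number come from 1 goose: same-goose deviations had r of 0.028 to 0.549 across 10116 genes. Alternatives were a pseudocount of 0.1, no filter or a mean FPKM above 1, median centring, quantile normalisation (added after seeing the data), no trend, blocks, all 18 libraries and leaving out each library. Counts of non-overlapping groups without C2-SF were also added after seeing the data. Every gene of the 9 is named, with pathway genes past the threshold and the 3 higher and 3 lower with the smallest p per tissue, and the 2 genes most alike. Sequences were not used here.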

Additional observations from a re-analysis of the deposited data

Results flagged for a closer look

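SOCS1 and SGK2 are described because they were the listed pathway genes past the threshold in an interaction test. For liver against AF 1 of 92 passed (1.09%, beside 0.0723% of all genes). For liver against SF 1 higher and 1 lower of 93 passed (2.15%, beside 1.72%), and for AF against SF 0 of 93 (beside 0.0387%). In the main fits, though not in all others, the response of SOCS1 to feeding differed between liver and fat. Its log2 change was -1.43 in liver, 0.84 in AF and 0.75 in SF, and the difference between changes was -2.27 for liver against AF (SE 0.24, adjusted p = 0.0301, limma with goose as a block) and -2.17 for liver against SF (adjusted p = 0.0081). In AF it was 10.3, 8.68 and 6.02 FPKM in high-intake geese, against 4.65, 3.47 and 4.27 FPKM in control geese, without overlap and in the opposite order to liver. In SF it was 6.80, 4.56 and 4.38 FPKM in high-intake geese, against 3.28, 1.22 and 4.21 FPKM in control geese. The liver against AF call was kept in 1 of 6 fits that left out a goose, with adjusted p of 0.0469 to 0.0898, and was lost with a pseudocount of 0.1, without the filter and with quantile normalisation (adjusted p = 0.0506, 0.117 and 0.061). The liver against SF call was kept in 5 of 6 and lost without goose C2 (-1.70, adjusted p = 0.170). It was also lost without the filter, without the trend and with quantile normalisation (adjusted p = 0.221, 0.297 and 0.126), and without goose as a block (0.0808).

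In the main fit on the log2(FPKM + 1) scale the response of SGK2 also differed between liver and SF. Its log2 change was 1.52 in liver and -0.19 in SF, and the difference was 1.71 (SE 0.40, adjusted p = 0.0202, limma). SGK2 was near 0 in fat, where this scale understates changes. It was 0 to 0.268 FPKM in high-intake SF and 0.219 to 0.302 FPKM in control SF. In AF it was 0.0708 to 0.776 FPKM in high-intake geese and 0.0645 to 0.238 FPKM in control geese. The call was lost without goose T2, C2 or C3, with adjusted p of 0.0529, 0.126 and 0.109, and also without the filter, without the trend, with quantile normalisation (0.198, 0.199 and 0.126) and without goose as a block (0.0573). Against AF the difference was 1.26 (adjusted p = 0.193).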

How the results depend on the processing

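Depth is unknown, each group has 3 geese, and C2-SF alone moves most SF values. In liver the count of the 9 genes past the threshold was 1 (PIK3R1) in place of 0 on 4 settings. These were pseudocount 0.1 (2.48% of all genes), median centring (2.59%), no trend (2.31%) and quantile normalisation (2.85%). The count was 0 to 1 over fits leaving out 1 library (0% to 2.02% of all genes). In control liver against SF it was 6 with quantile normalisation (49.8% of all genes) and 3 to 7 over libraries left out (27.5% to 62.1%). In high-intake geese it was 3 against AF with median centring (53.8%) and 3 with quantile normalisation (47.4%), and against SF 4 (55.1%) and 5 (50.8%). The other pathway genes called in liver numbered 1 without the filter (0.547% of all genes) and 4 with median centring (2.59%) or quantile normalisation (2.85%). Over libraries left out they numbered 0 to 2 (0% to 2.02%). In AF they numbered 0 to 1, and in SF 0 to 1. The number in SF was 0 without the filter, with median centring, no trend, quantile normalisation and all 18 libraries. It was also 0 above a mean FPKM of 1, but there IGF1, the call of the main fit, fell below the filter and was not tested. Over all genes the calls with feeding numbered 257 in liver, 80 without the filter and 490 from all 18 libraries; 11 in AF, 6 with median centring, 5 with quantile normalisation, 0 without the filter and 170 from all 18; and 283 in SF, 1 without the filter or the trend, 154 above a mean FPKM of 1, 38 with median centring, 5 with quantile normalisation, and 173 from all 18. Leaving out 1 library, the calls over all genes in liver numbered 0 without C1, 13 without C3, 39 without C2, 61 without T1 and 220 to 238 without T2 or T3. In AF they numbered 245 without C1, 21 without T2 and 0 to 2 without any other, and in SF 715 without C1, 4 without C2 and 115 to 150 without any other.

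With the replicate block, which joins different geese in the feeding comparisons, 0 other pathway genes passed in liver and 0 in SF, and over all genes 1 passed in liver, 0 in AF and 230 in SF; same-numbered geese had r of -0.092 to 0.323, and 0, 5 and 4 of 6 libraries in liver, AF and SF correlated best with their own number. For tissues, where the block is the goose, no call of the 9 genes changed.

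Log2 changes turned sign for INSR in AF with quantile normalisation (-0.047), for IRS4 in SF with median centring (-0.063) and quantile normalisation (-0.20), and for PDPK1 in SF (-0.25 and -0.34). With median centring they turned between liver and AF in control geese for IRS4 (0.006) and AKT1 (0.13), in high-intake geese for IRS4 (0.019), PDPK1 (0.60) and AKT1 (0.048), and between control liver and SF for IRS4 (0.20); quantile normalisation gave 0.44 for PDPK1 in high-intake liver against AF. The cause was not tested. Leaving out 1 library spanned 0 for changes near it: PDPK1 (-0.13 to 0.039 in liver, -0.066 to 0.028 in AF, -0.26 to 0.24 in SF), AKT1 (-0.36 to 0.05, -0.28 to 0.13 and -0.71 to 0.024), INSR in AF (-0.021 to 0.38), IRS4 in AF (-0.34 to 0.021) and SF (-0.22 to 0.51), IRS2 in liver (-0.15 to 0.25), PIK3CA in SF (-0.43 to 0.14) and PIK3R1 in SF (-0.80 to 0.10). Between tissues it did so for PDPK1 in liver against AF (-0.011 to 0.085 in control geese, -0.072 to 0.095 in high-intake geese), and in control liver against SF for PDPK1 (-0.12 to 0.37) and IRS4 (-0.54 to 0.19).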

Other observations

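Of the lncRNAs in the table, 6 lay within 50 kb of 1 of the 9 genes. XLOC_154012, 14442 bp downstream of IRS1, was 1.12, 0.829 and 1.17 FPKM in high-intake AF, against 1.49, 4.05 and 2.30 FPKM in control AF, without overlap, as IRS1 was in the same libraries. In liver it was 0.551, 1.05 and 0.459 FPKM in high-intake geese, against 0.480, 1.01 and 0.360 FPKM in control geese. XLOC_255623, 4115 bp downstream of PIK3R1, was listed at 0 in 5 of 6 livers and reached at most 0.519 FPKM, in C2-SF. XLOC_225863, 43976 bp upstream of PIK3CB, was 0, 0.0391 and 0.0467 FPKM in high-intake SF, against 0.107, 0.527 and 0.188 FPKM in control SF. These low values did not overlap, whereas PIK3CB overlapped in SF and had its higher mean in high-intake geese. Among these 6 lncRNAs in liver, AF and SF, only XLOC_154012 in AF and XLOC_225863 in SF were without overlap. In all other comparisons the feeding groups overlapped or every value was 0. The share of all lncRNAs without overlap was not determined, so these cases cannot be told from chance. The lncRNA values carry no test.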
